A study of Mus musculus with 6 samples.

Results

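Integrins are cell surface receptors made of an alpha and a beta subunit, and laminins are trimers of an alpha, a beta and a gamma chain that form the framework of basement membranes. The rows of the deposited mouse liver table whose symbols spell an integrin subunit or a laminin chain were taken by name, which gave 39 of 24411 rows: 27 integrin subunits, 11 laminin chains and Itgb3bp, a centromere protein gene that is no integrin and was caught by its spelling. RNA was sequenced from whole liver of 3 control samples, given as WT, and 3 samples of the genotype Alb-Cre+/+;Sox9 flox/flox (Sox9 cKO), with C57BL/6J named as a strain of the study. Cre under the albumin promoter is directed at liver epithelial cells, so the other cells of the organ are not its target. The sources used here give neither the ages and sexes of the animals nor any Cre or floxed allele in the controls. They do not say whether each library came from a separate animal, so a p-value refers to the spread of these 6 libraries, which may be technical. The design sets livers in which Sox9 was targeted, a gene for a transcription factor active in bile ducts, against livers in which it was not.

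As background, the beta2 subunit joins alphaL, alphaM, alphaX or alphaD on white blood cells, and these receptors bind ICAM proteins and complement fragments during adhesion and uptake. The alpha4 subunit joins beta1 or beta7 and binds VCAM1 and fibronectin. The beta1 subunit is found on most cells and pairs with many alpha subunits to bind collagen, laminin or fibronectin. In liver, bile ducts and vessels lie on a laminin-containing basement membrane, while the hepatocyte plates face the sinusoid without a continuous one.

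Values are TPM, the estimated share of a library's transcripts corrected for gene length, so levels of different genes can be set side by side. Differences were taken as Sox9 cKO less control after log2(TPM + 0.5), a transformation that shrinks changes of low genes. A gene is said to have fallen or risen where the limma test gave a Benjamini-Hochberg adjusted p under 0.05 over all 12539 genes that averaged 0.5 TPM or more. Of these genes 9.59% passed, 8.76% lower and 0.821% higher, and the median difference of all of them was -0.24. Members are described beside that shift. After median centring, which moved this median to 0.04, 256 genes were lower and 146 higher in place of 1099 and 103.

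Both groups had liver RNA by the level of Alb, the albumin gene of hepatocytes. It was at 100900 to 110461 TPM in controls and at 74907 to 82381 TPM in Sox9 cKO, without overlap, and did not pass (limma adjusted p = 0.330). Sox9 was at 1.43 to 1.69 TPM in the controls and at 0.19 to 0.68 TPM in Sox9 cKO (limma adjusted p = 0.0323). Its Sox9 cKO mean was 0.423 TPM, so it entered the test through the controls only. The call was lost in 10 of the 17 other settings that could test it. The sex markers differed between libraries. Xist, the RNA of the inactive X chromosome, reached 114 and 123 TPM in control replicates 1 and 2 and did not exceed 0.02 TPM in the remaining 4 libraries, while the Y-linked Eif2s3y was at 47.6 to 51.6 TPM in those 4 and at 0.07 and 0 TPM in control replicates 1 and 2. Every difference below was measured across this imbalance.

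Of the 26 integrin and laminin genes tested, 12 fell and 0 rose by limma. No member with a positive difference had an unadjusted limma p under 0.05 either. Across the 18 other settings 0 members rose. Unadjusted p-values were counted in only some of these settings. Among those, Lamb3 had a positive difference with an unadjusted limma p under 0.05 after median centring (0.81, limma adjusted p = 0.122). The same held after quantile normalization (1.02, limma adjusted p = 0.0910). The 12 are Itgb2, Itgal, Itgam, Itgax, Itga4, Itgb7, Itga2b, Itgb3, Itga9, Itga1, Lamb1 and Lamc1. Among the tested members 5 had a mean of at least 0.5 TPM in the controls only (Itga4, Itgam, Itgax, Lama2 and Lama5), so they could enter the test only by being higher there, and their direction is no result of the test. Of the 21 members with at least that mean in each group 9 fell, where 8.23% of such genes did. Over all 38 integrin and laminin genes, tested or not, every Sox9 cKO library lay below every control library for 27 and above for 2, and the groups overlapped for 9. The same held for 20.1% and 2.19% of all rows of the table, and for 33.7% and 3.79% of the tested genes. Itgb3bp was at 1.56 to 2.08 TPM in controls and 1.47 to 2.66 TPM in Sox9 cKO, with overlapping groups, and is left out of the counts of integrins and laminins. The 12 members under 0.5 TPM had single values between 0 and 1.28 TPM and included Itga2, Itga10, Itga11, Itgad, Itgae, Itgb2l, Itgb4, Itgb6, Itgb8, Lama3 and Lamc3. The members nearest that limit were Lama5 (mean 0.645 TPM) and Lama2 (0.727 TPM) inside it and Lama3 (0.490 TPM) and Itga10 (0.468 TPM) outside it.

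**Figure D1:**
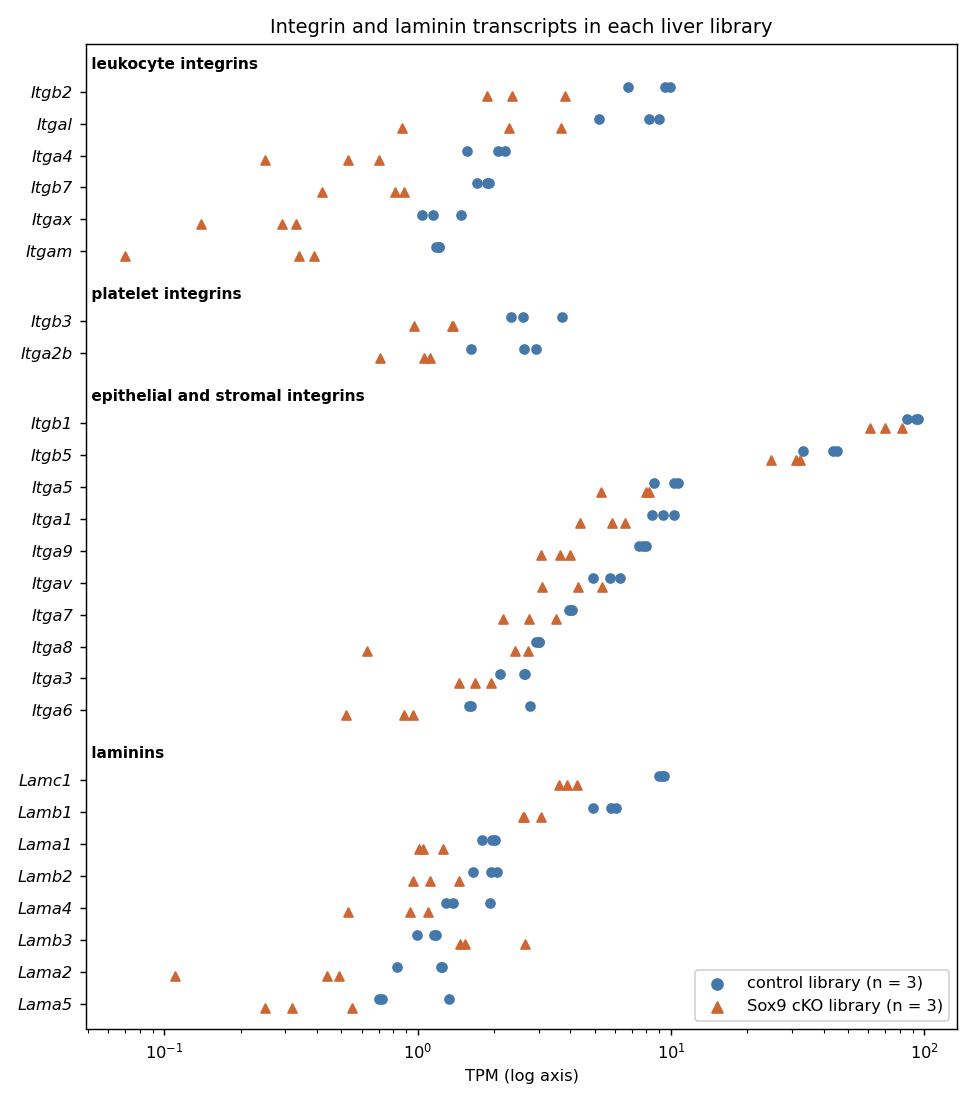
TPM of each tested integrin subunit and laminin chain on a log axis, with 1 circle per control library and 1 triangle per Sox9 cKO library (n = 3 each), in 4 classes ordered by the control mean. The triangles lie left of the circles for every leukocyte and platelet subunit, overlap them for Itgav, and lie right of them only for Lamb3.

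The alpha subunits of the beta2 integrins lie together on mouse chromosome 7 (mm10, GENCODE positions). Itgal spans 127296260 to 127335138, Itgam 128062640 to 128118491, Itgax 128129547 to 128150657 and Itgad 128154376 to 128223816, all on the plus strand. The 250 bases before the RefSeq start of 3 leukocyte subunits that fell and of the broadly expressed Itgb1 are shown because the first 3 moved together and Itgb1 did not pass the test. These genes were chosen after their values were seen. The first 3 entered the test through the controls only, so their shared direction is no result of the test. Capitals mark GAGGAA, the core of the box bound by PU.1 in blood cells, and GGGCGG, a GC box, on either strand.
Itgam, chr7:128062390-128062639 (GRCm38.p6, plus strand): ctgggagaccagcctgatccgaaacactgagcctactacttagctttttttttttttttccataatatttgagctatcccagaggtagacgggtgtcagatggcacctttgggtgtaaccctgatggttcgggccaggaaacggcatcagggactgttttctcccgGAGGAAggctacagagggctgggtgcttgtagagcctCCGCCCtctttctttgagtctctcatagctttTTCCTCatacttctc
Itgax, chr7:128129300-128129549 (GRCm38.p6, plus strand): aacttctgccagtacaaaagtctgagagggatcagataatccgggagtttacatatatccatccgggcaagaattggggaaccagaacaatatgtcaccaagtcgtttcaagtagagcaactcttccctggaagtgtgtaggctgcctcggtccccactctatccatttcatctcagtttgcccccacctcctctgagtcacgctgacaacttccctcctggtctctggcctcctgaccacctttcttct
Itga4, chr2:79255176-79255425 (GRCm38.p6, plus strand): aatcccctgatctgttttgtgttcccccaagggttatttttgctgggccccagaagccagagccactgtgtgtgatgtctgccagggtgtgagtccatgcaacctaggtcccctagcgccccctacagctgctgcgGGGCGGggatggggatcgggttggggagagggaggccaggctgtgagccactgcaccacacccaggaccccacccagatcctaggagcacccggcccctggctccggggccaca
Itgb1, chr8:128685404-128685653 (GRCm38.p6, plus strand): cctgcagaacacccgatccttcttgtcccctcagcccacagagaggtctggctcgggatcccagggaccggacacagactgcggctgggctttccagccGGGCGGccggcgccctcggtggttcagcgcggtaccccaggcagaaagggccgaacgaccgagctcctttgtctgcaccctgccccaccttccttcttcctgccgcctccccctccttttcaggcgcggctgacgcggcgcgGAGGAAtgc
The Itgam window held GAGGAA starting 84 bases and, on the other strand, 15 bases before the start, the Itgb1 window held it 9 bases before the start, and the Itgax and Itga4 windows did not hold these letters. Over the 28 windows found for 25 of the members, GAGGAA was present in 14, beside 23.3% of all 32851 windows in the table, and GGGCGG in 9, beside 32.7%. Among leukocyte subunits with a window, Itgam and Itgb2l held GAGGAA. Its other carriers were Itga2b, Itga3, Itga5, Itga11, Itgav, Itgb1, Itgb6, Lama2, Lama5, Lamb1, Lamb2 and Lamb3. ACAATG, the core bound by SOX proteins, was present in the windows of Itga8 and Itgb3bp only, beside 10.7% of all windows, and TATAAA in 0, beside 12.4%. Each was searched on both strands, and the 4 motifs do not overlap in the windows shown.

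The 6 tested leukocyte integrins fell, Itgb2, Itgal and Itgb7 to between 30.7% and 38.4% of their control means and Itga4, Itgam and Itgax to between 20.7% and 25.3%. Itga4, Itgam and Itgax entered the test through the controls only, and the 3 with at least 0.5 TPM in each group, Itgb2, Itgal and Itgb7, fell by 0.98 to 1.62 on the log2 scale. After median centring Itgb2 was the 1 leukocyte subunit that passed, and all 6 had an unadjusted limma p under 0.05. Itgb2, which encodes the shared beta2 chain, was at 9.93, 9.44 and 6.77 TPM in control replicates 1 to 3 and at 2.36, 1.87 and 3.82 TPM in Sox9 cKO replicates 1 to 3. The groups did not overlap, with the lowest control 6.77 TPM and the highest Sox9 cKO library 3.82 TPM. The log2 difference was -1.56 (SE 0.26, limma adjusted p = 0.0161), and the mean fell from 8.71 ± 1.70 to 2.68 ± 1.01 TPM (SD, n = 3 each).

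Itgal, the alphaL chain of LFA-1 and a partner of Itgb2, was at 8.21, 8.93 and 5.20 TPM in controls against 2.30, 0.87 and 3.69 TPM in Sox9 cKO. Both genes were lowest among controls in replicate 3, and both were lowest of all in Sox9 cKO replicate 2. Itgal differed by -1.62 (SE 0.40, limma adjusted p = 0.0446). Itgam, the alphaM chain of the complement receptor Mac-1 on macrophages and neutrophils, was at 1.18, 1.21 and 1.21 TPM in controls against 0.34, 0.07 and 0.39 TPM in Sox9 cKO, a difference of -1.18 (SE 0.24, limma adjusted p = 0.0296). Itgax, the alphaX chain of dendritic cells and some macrophages, was at 1.04, 1.15 and 1.48 TPM in controls against 0.33, 0.14 and 0.29 TPM in Sox9 cKO. Its difference was -1.19 (SE 0.23, limma adjusted p = 0.0229). The groups of these 3 alpha subunits did not overlap.

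Outside the beta2 receptors, Itga4 was at 1.57, 2.07 and 2.22 TPM in controls against 0.70, 0.25 and 0.53 TPM in Sox9 cKO, and fell by 1.32 on the log2 scale (SE 0.25, limma adjusted p = 0.0221). An exon of Itga4 overlaps one of Cerkl on the opposite strand, so reads of these genes cannot be told apart where the counting ignored strand. Such an overlap was present for 10 of the 39 rows, the others being Itga7, Itga8, Itgad, Itgav, Itgb3bp, Itgb4, Lama2, Lama3 and Lamc3. Itgb7, its partner on gut-homing lymphocytes, was at 1.71, 1.92 and 1.87 TPM in controls against 0.81, 0.42 and 0.88 TPM in Sox9 cKO (difference -0.98, SE 0.22, limma adjusted p = 0.0364). Neither gene's groups overlapped, and both were again lowest in Sox9 cKO replicate 2. Of the 3 leukocyte subunits under 0.5 TPM, Itgb2l was at 0.45 to 0.49 TPM in controls and 0.26 to 0.39 TPM in Sox9 cKO. Itgae, the alphaE chain of intraepithelial lymphocytes, and Itgad had overlapping groups and no value above 0.37 TPM.

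Itga2b and Itgb3 together form the fibrinogen receptor of platelets, and Itgb3 also joins alphaV on other cells. Both fell by a similar amount. Itga2b was at 1.62, 2.62 and 2.93 TPM in controls against 1.06, 0.71 and 1.12 TPM in Sox9 cKO (difference -0.96, SE 0.25, limma adjusted p = 0.0495). Itgb3 was at 2.61, 2.34 and 3.72 TPM in controls against 1.36, 0.97 and 1.38 TPM in Sox9 cKO (difference -0.95, SE 0.22, limma adjusted p = 0.0377). The groups did not overlap for either, and the nearest pair of values, 1.62 and 1.12 TPM, belonged to Itga2b. Of 5 other platelet genes, Pf4 fell (difference -0.96), a call lost with any 1 control left out, and Ppbp did not pass, while Gp9, Gp1bb and Gp1ba were under the limit for testing. Gp9 and Gp1bb were listed at 0 in 2 of the 3 controls. The summed level of the 5 was 3.00 to 10.52 TPM in controls and 1.64 to 3.35 TPM in Sox9 cKO, and its part in the result was not tested.

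Markers of the cells that carry these receptors were measured beside them. Of 8 genes of leukocytes in general 6 fell, and their summed level was 148 to 184 TPM in controls and 69.0 to 101 TPM in Sox9 cKO. None of the 8 was at 0 in any library. Cd53 and Lcp1 did not pass. The groups overlapped for Lcp1, at 42.2 to 47.4 TPM in controls and 33.0 to 48.5 TPM in Sox9 cKO (difference -0.10, limma adjusted p = 0.724). Ptprc, which encodes the pan-leukocyte phosphatase CD45, was at 6.44 to 7.58 TPM in controls against 3.07, 1.05 and 3.21 TPM in Sox9 cKO (difference -1.46, SE 0.33, limma adjusted p = 0.0356). Of 6 Kupffer cell genes 3 fell (summed 297 to 486 against 93.8 to 219 TPM), and of 4 tested neutrophil genes 4 fell (summed with Cxcr2 33.1 to 76.4 against 1.59 to 8.80 TPM), with Retnlg at 0 in all Sox9 cKO libraries and S100a9 at 0 in 1 of them. Of 5 tested lymphocyte genes 0 fell by limma and 2 had an unadjusted p under 0.05, with a summed level, Cd3e included, of 8.29 to 10.3 TPM in controls and 3.67 to 7.19 TPM in Sox9 cKO. These calls depended on the controls. Without control replicate 1, 2 or 3 the general leukocyte genes that passed numbered 1, 1 and 4, the Kupffer cell genes 1, 1 and 2, and the neutrophil genes 1, 0 and 2, while 7, 6 and 4 had an unadjusted limma p under 0.05 in each case. With the sex-marker term described below 0, 0 and 1 passed by limma, and 6, 3 and 4 had an unadjusted p under 0.05. Retnlg entered the test through the controls only. The part of cell number in the result was not tested, and in whole liver fewer cells of a type and less RNA per cell cannot be told apart. Set against Ptprc in the same library, Itgb2 was 1.05 to 1.41 times as high in controls and 0.769 to 1.78 times in Sox9 cKO, and Itgal 0.808 to 1.18 and 0.749 to 1.15 times. Both of these ratios overlapped between the groups.

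**Figure D2:**
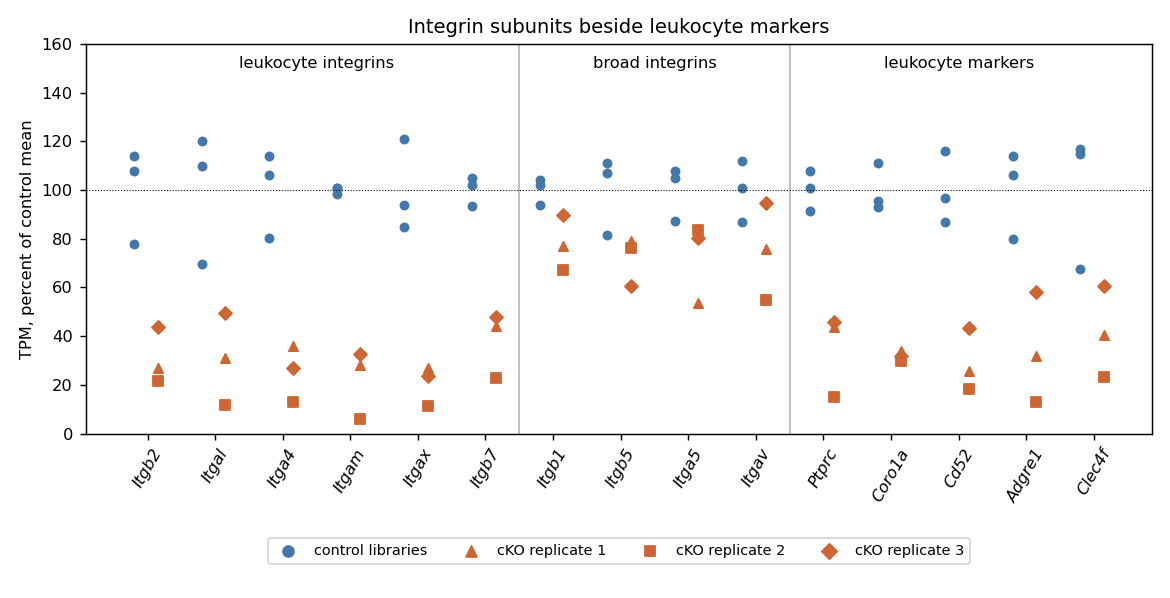
TPM of 6 leukocyte integrin subunits, 4 broadly expressed subunits and 5 leukocyte or Kupffer cell markers in every library as a percent of each gene's control mean, with circles for the controls and a separate symbol for each Sox9 cKO replicate. The leukocyte subunits lay between 5.83% and 49.6% in Sox9 cKO, Itgb1, Itgb5, Itga5 and Itgav between 53.6% and 94.7%, and the 5 drawn markers between 13.1% and 60.8%. The other tested epithelial and stromal subunits are not drawn. Their Sox9 cKO means were 39.4% (Itga6), 46.1% (Itga9) and 59.9% to 70.1% (Itga1, Itga3, Itga7 and Itga8) of the control means. Lcp1, a general leukocyte gene whose Sox9 cKO mean was 94.5% of the control mean, is not drawn either.

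The 10 tested integrins of epithelium and stroma were lower by less. Of these 2 fell, beside 8.76% of all tested genes. The median difference of the 10 was -0.46, beside -0.24 for all tested genes. All 10 averaged at least 0.5 TPM in each group, as did the leukocyte subunits Itgal (-1.62), Itgb2 (-1.56) and Itgb7 (-0.98). Every one had a negative difference, and in 9 of the 10 every Sox9 cKO library was below every control library, beside 33.7% of all tested genes. Members of a class share cells and libraries, so no test was run between the classes as gene sets.

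Itgb1 was the most abundant integrin transcript. It was at 94.3, 85.2 and 92.6 TPM in controls against 69.9, 60.8 and 81.5 TPM in Sox9 cKO. The groups were apart by 85.2 against 81.5 TPM, and the difference of -0.37 (95% interval -0.69 to -0.04, limma adjusted p = 0.128) did not pass. Itgb5, which joins alphaV to bind vitronectin, came next at 45.4, 43.7 and 33.2 TPM in controls against 32.2, 31.1 and 24.8 TPM in Sox9 cKO (difference -0.46, 95% interval -0.85 to -0.07, limma adjusted p = 0.116). Itgav, the alphaV chain of RGD receptors, was the tested integrin whose groups overlapped, at 4.91 to 6.30 TPM in controls and 3.10 to 5.35 TPM in Sox9 cKO (difference -0.40, 95% interval -0.88 to 0.09). Below Itgb5 the control means followed in the order Itga5, Itga1, Itgb2, Itga9, Itgal and Itgav, with single controls from 4.91 to 10.6 TPM and each gene's range overlapping that of the next.

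Itga9 and Itga1 were the members of the class that fell. Itga9, whose alpha9beta1 receptor binds tenascin C and VCAM1, was at 7.75, 7.97 and 7.50 TPM in controls against 3.66, 3.07 and 3.98 TPM in Sox9 cKO, so the groups were far apart relative to their spread. It fell by 1.02 on the log2 scale (SE 0.15, limma adjusted p = 0.0119). Itga1, the alpha1 chain of a collagen and laminin receptor, was at 9.31, 8.45 and 10.3 TPM in controls against 5.84, 4.37 and 6.59 TPM in Sox9 cKO, with no overlap. Its difference of -0.70 (SE 0.18) was just inside the threshold (limma adjusted p = 0.0499) and was lost in 14 of 18 other settings.

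Itga6, the alpha6 chain of laminin receptors, was at 2.78, 1.59 and 1.62 TPM in controls against 0.88, 0.52 and 0.96 TPM in Sox9 cKO (difference -0.94, 95% interval -1.54 to -0.34, limma adjusted p = 0.0596). It had no overlap and did not pass. The remaining laminin and fibronectin receptors did not pass either. Itga3 had a difference of -0.44 (limma adjusted p = 0.161), Itga7 of -0.46 (0.149), Itga5, the fibronectin receptor chain, of -0.46 (0.167) and Itga8 of -0.67 (0.273). Itga8, an RGD receptor chain of stellate cells, was at 2.94, 3.02 and 3.01 TPM in controls against 2.42, 0.63 and 2.72 TPM in Sox9 cKO, where replicate 2 stood apart. Itga3 was reversed to 0.05 by quantile normalization. Itgb4, the partner of alpha6 in hemidesmosomes, was at 0.12 to 0.17 TPM in controls and 0 to 0.09 TPM in Sox9 cKO, and Itga2 at 0.10 to 0.27 and 0 to 0.08 TPM. Both were without overlap and too low for the test. Itga10 and Itga11, alpha chains of collagen receptors, were at 0.33 to 0.59 TPM and at no more than 0.05 TPM. Itgb6 and Itgb8, the epithelial activators of latent TGF-beta with alphaV, had no value above 0.27 TPM.

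The makeup of the integrin transcripts differed accordingly. Leukocyte subunits held 11.3%, 12.5% and 10.1% of summed integrin TPM in controls and 5.09%, 3.40% and 6.75% in Sox9 cKO. Itgb1 alone held 43.9%, 41.6% and 47.5% in controls and 49.9%, 49.8% and 53.8% in Sox9 cKO. The groups did not overlap for either share. The log2 ratio of Itgb2 to Itgb1 was -3.18, -3.11 and -3.68 in controls and -4.62, -4.69 and -4.25 in Sox9 cKO, a difference of -1.20 with an exact two-sided permutation p = 0.1, the smallest that 3 against 3 samples allow.

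**Figure D3:**
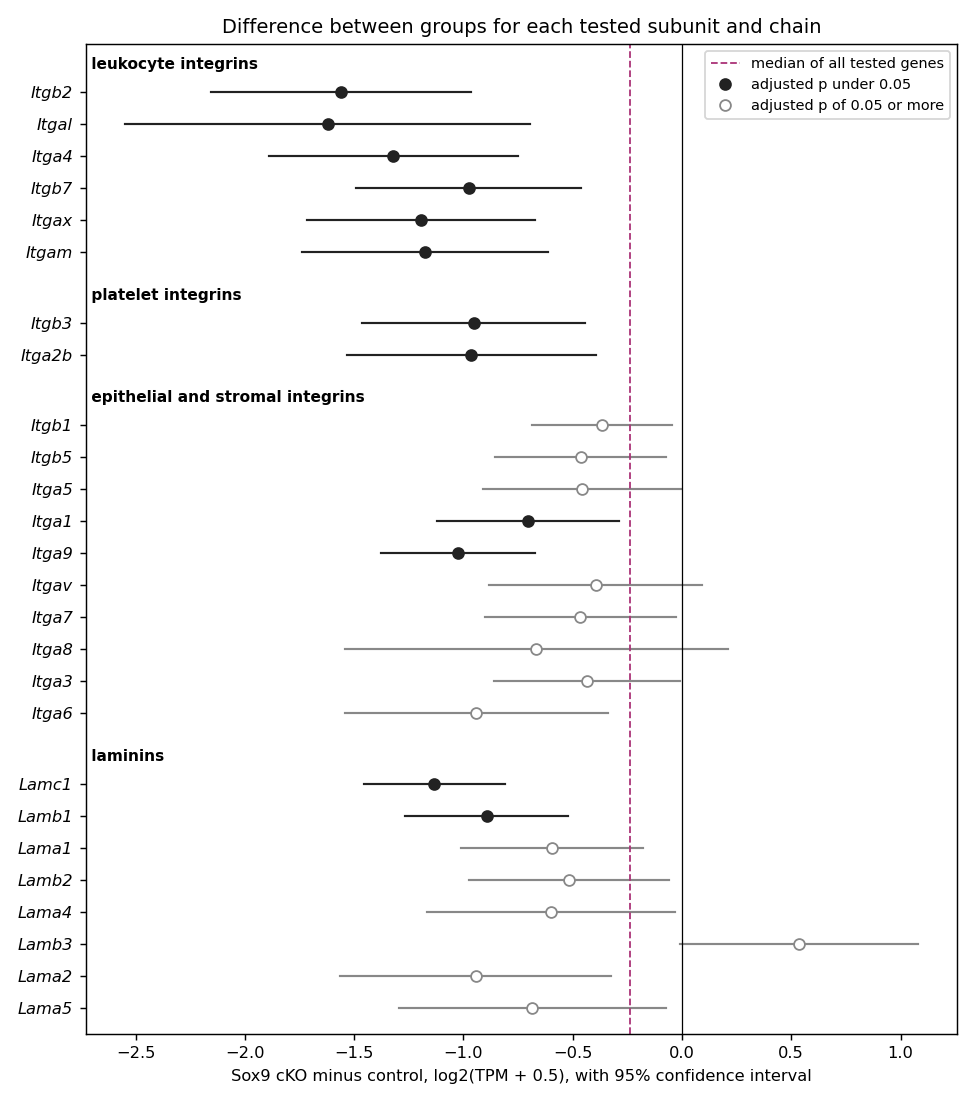
Difference between Sox9 cKO and control on the log2(TPM + 0.5) scale with its 95% confidence interval for each tested member, filled where the adjusted p was under 0.05, with the median of all tested genes (-0.24) as a dashed line. The leukocyte and platelet subunits lie between -1.62 and -0.95, most epithelial and stromal subunits lie nearer to the dashed line, and Lamb3 lies at 0.54.

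Among laminins, 2 of 8 tested chains fell, beside 8.76% of all tested genes, and both had at least 0.5 TPM in each group. The median difference of the 8 was -0.64, and 1 chain had a positive difference. Lamc1 encodes the gamma1 chain shared by most laminins. It was at 9.38, 8.97 and 9.23 TPM in controls against 4.26, 3.61 and 3.90 TPM in Sox9 cKO, a tight separation in which 42.7% of the control mean remained. It fell by 1.13 on the log2 scale (SE 0.14, limma adjusted p = 0.00668), the lowest adjusted p of the members. Lamb1, the beta1 chain, was at 4.91, 6.06 and 5.77 TPM in controls against 3.07, 2.62 and 2.61 TPM in Sox9 cKO, with no overlap, and fell by 0.89 (SE 0.16, limma adjusted p = 0.0202). Lamb2, the beta2 chain of vessel and muscle laminins, was at 1.66 to 2.05 TPM and 0.96 to 1.45 TPM (difference -0.52, limma adjusted p = 0.130).

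Of the 4 tested alpha chains 0 passed by limma, although all 4 had an unadjusted p under 0.05 and each was lower in every Sox9 cKO library. Lama2 and Lama5 entered the test through the controls only, so their direction is no result of the test. Lama1, the alpha1 chain of early embryonic basement membranes, was at 1.97, 1.79 and 2.01 TPM in controls against 1.26, 1.05 and 1.01 TPM in Sox9 cKO (difference -0.60, limma adjusted p = 0.0739). Lama2, a chain made by mesenchymal cells, was at 1.25, 0.83 and 1.24 TPM and at 0.49, 0.11 and 0.44 TPM (difference -0.94, limma adjusted p = 0.0634). Lama4, a chain of endothelial basement membrane, differed by -0.60 (limma adjusted p = 0.150), and Lama5, the alpha5 chain of epithelial and vascular basement membranes, by -0.68 (0.133).

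Lamb3 and Lama3 went the other way. These encode an alpha and a beta chain of epithelial laminin in skin. Lamb3 was at 1.18, 1.16 and 0.99 TPM in controls against 1.47, 2.65 and 1.54 TPM in Sox9 cKO, above every control but with a difference of 0.54 that did not pass (95% interval -0.01 to 1.08, limma adjusted p = 0.173). Lama3, whose mean was just under 0.5 TPM, was at 0.17, 0.19 and 0.12 TPM in controls against 0.30, 0.88 and 1.28 TPM in Sox9 cKO. With no filter on low values its difference was 0.93 (SE 0.28, limma adjusted p = 0.0948). Lamc3, which encodes the gamma3 chain, was at 0.07 to 0.23 TPM for the controls and 0.04 to 0.39 TPM for Sox9 cKO, so the groups overlapped. The share of Lamb3 in summed beta chain TPM was 11.2% to 15.2% for the controls and 24.5% to 42.5% for Sox9 cKO. The log2 ratio of Lamb3 to Lamb1, a pair chosen because their values went opposite ways, was 1.43 higher in Sox9 cKO and is given with no test.

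**Figure D4:**
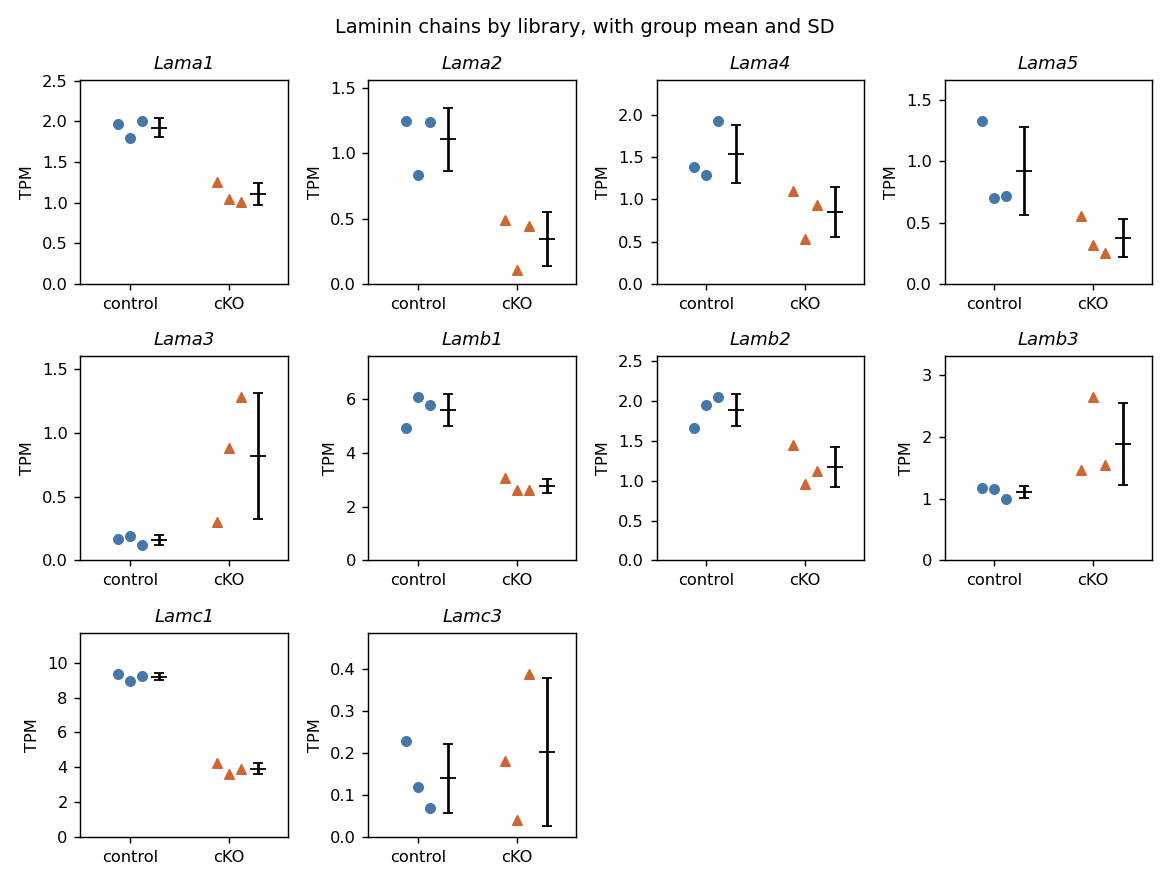
TPM of laminin chains in each library, with circles for controls, triangles for Sox9 cKO and a bar for the group mean and SD (n = 3 each), on a linear axis from 0 that differs between panels. Lamc1 drops from about 9.19 to 3.92 TPM and Lamb1 from 5.58 to 2.77 TPM, while Lama3 and Lamb3 are higher in all 3 Sox9 cKO libraries.

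Of 10 tested partners of laminin in basement membranes 6 fell and 0 rose, beside 8.76% and 0.821% of all tested genes. Nid1, the nidogen that links laminin to collagen IV, was at 24.1, 21.5 and 27.3 TPM in controls against 6.58, 6.09 and 6.06 TPM in Sox9 cKO (difference -1.87, SE 0.14, limma adjusted p = 9.99e-04). The collagen IV chains Col4a1 (-1.22), Col4a2 (-1.17), Col4a3 (-2.33) and Col4a5 (-1.02) and the perlecan gene Hspg2 (-0.77) also fell. Col4a3 averaged under 0.5 TPM in Sox9 cKO and so entered the test through the controls only. With any 1 control left out 4 of the 10 passed, with the sex-marker term described below 2 did, and without both controls with high Xist 0 did by limma, where 5 had an unadjusted p under 0.05. Among 7 tested laminin receptors outside the integrins and their partners 3 fell: Dag1, which encodes dystroglycan (-0.80), Cd44 (-1.56) and Mcam (-0.88), and 0 passed by limma with any 1 control left out, where 3 or 4 had an unadjusted p under 0.05.

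Markers of the cells that could make these laminins and integrins passed the test in part. Of 8 stellate cell and fibroblast genes 4 fell (summed 355 to 389 against 145 to 267 TPM), and of 6 endothelial genes 2 fell (136 to 153 against 81.6 to 118 TPM). Without control replicate 1, 2 or 3 the stellate cell genes that passed by limma numbered 0, 0 and 1 and the endothelial genes 0 each time, while 6, 7 and 6 and 3, 4 and 4 had an unadjusted p under 0.05. With the sex-marker term 0 of either passed by limma, and 7 and 5 had an unadjusted p under 0.05. Of 7 tested bile duct genes 1 fell, and 4 had an unadjusted limma p under 0.05. The summed level of the 7 with Cftr was 90.2 to 150 TPM in controls and 66.7 to 84.8 TPM in Sox9 cKO. Of that sum, Spp1 alone held 58.2 to 106 TPM in controls and 40.5 to 62.6 TPM in Sox9 cKO. The groups overlapped for Spp1, Krt19 and Epcam. Cftr had no value above 0.03 TPM. Of 6 hepatocyte genes 0 fell by limma, and 0 had an unadjusted p under 0.05. The part of these cells in the differences was not tested.

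Of 18 tested integrin ligands 7 fell and 0 rose, beside 8.76% and 0.821% of all tested genes. The ligands that fell include some counter-receptors of the leukocyte subunits. Icam1, bound by the beta2 integrins, was at 15.8, 15.5 and 13.1 TPM in controls against 3.85, 5.26 and 5.84 TPM in Sox9 cKO (difference -1.49, SE 0.18, limma adjusted p = 0.00668). Vcam1, bound by alpha4 and alpha9 integrins, was at 14.8, 16.7 and 22.1 TPM and at 3.45, 2.29 and 7.98 TPM (difference -1.99, SE 0.38, limma adjusted p = 0.0238). The groups overlapped for neither. Icam2, another ICAM gene, did not pass (difference -0.58, limma adjusted p = 0.0687). Fn1, the fibronectin gene, went from 436 ± 37.3 to 264 ± 4.54 TPM (SD, n = 3 each; difference -0.72, limma adjusted p = 0.0175), and Postn (-1.56), Mfge8 (-1.22), Thbs1 (-1.22) and Tgfb1 (-1.01) fell, of which Thbs1 entered the test through the controls only. Vtn, the vitronectin gene, had a difference of -0.35 that did not pass (limma adjusted p = 0.167). Without control replicate 1, 2 or 3 the ligands that passed numbered 2, 2 and 3. With the sex-marker term described below 0 passed by limma, and 11 had an unadjusted p under 0.05.

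Cytoplasmic adaptors that couple integrins to actin had a median difference of -0.28, close to that of all tested genes. Beside 8.76% of all tested genes, 7 of 25 tested adaptors fell. Some genes used in blood cells were among the 7, namely Fermt3, the kindlin of leukocytes and platelets (-1.26), and Parvg, a parvin of blood cells (-1.40). Apbb1ip, the Rap1 effector RIAM (-1.16), was another. Parvg entered the test through the controls only. Their broadly expressed relatives Fermt2 (difference -0.20) and Parva (-0.24), and the kinase gene Ilk (-0.12), did not pass, and the sign of these 3 was positive after median centring (0.08, 0.04 and 0.16). These 3 were named after their values were seen. The adaptors were not sorted by cell type. The 18 that did not pass also include Rap1b (-0.54), Nedd9 (-0.51), Tln1 (-0.48) and Ptk2b (-0.21). Lims1 (-0.81), Src (-0.95), Tns3 (-0.76) and Pxn (-0.50) fell as well. With any 1 control left out 0 adaptors passed by limma, and 10 to 12 had an unadjusted p under 0.05.

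The counts above rest on single libraries and on the sex imbalance. Without control replicate 1, 2 or 3 there were 1, 1 and 3 members past the threshold, and Lamc1 was the member that passed in each case. Without Sox9 cKO replicate 1 or 2 there were 6 and 7. With a term for the sex marker (Xist above 10 TPM), and likewise without control replicates 1 and 2, 0 members passed by limma, though 14 and 12 had an unadjusted p under 0.05. In both fits the comparison comes down to control replicate 3, since the other controls had high Xist. In the fit with the sex-marker term the difference was -1.14 for Lamc1 (-1.13 without it), -0.98 for Itga9 (-1.02), -1.24 for Itgb2 (-1.56), -1.18 for Itgal (-1.62) and -1.48 for Itga4 (-1.32). Among members that had not passed, the difference shrank for some, to -0.18 for Itgb5 (-0.46), -0.22 for Itgav (-0.40) and -0.28 for Itga5 (-0.46). For others it grew, to -0.87 for Lama4 (-0.60). All 3 Sox9 cKO libraries lay below control replicate 3 for 24 of the 26 tested members, as they did for 47.9% of all tested genes, above it for Lamb3, and on both sides of it for Itgav.

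**Figure D5:**
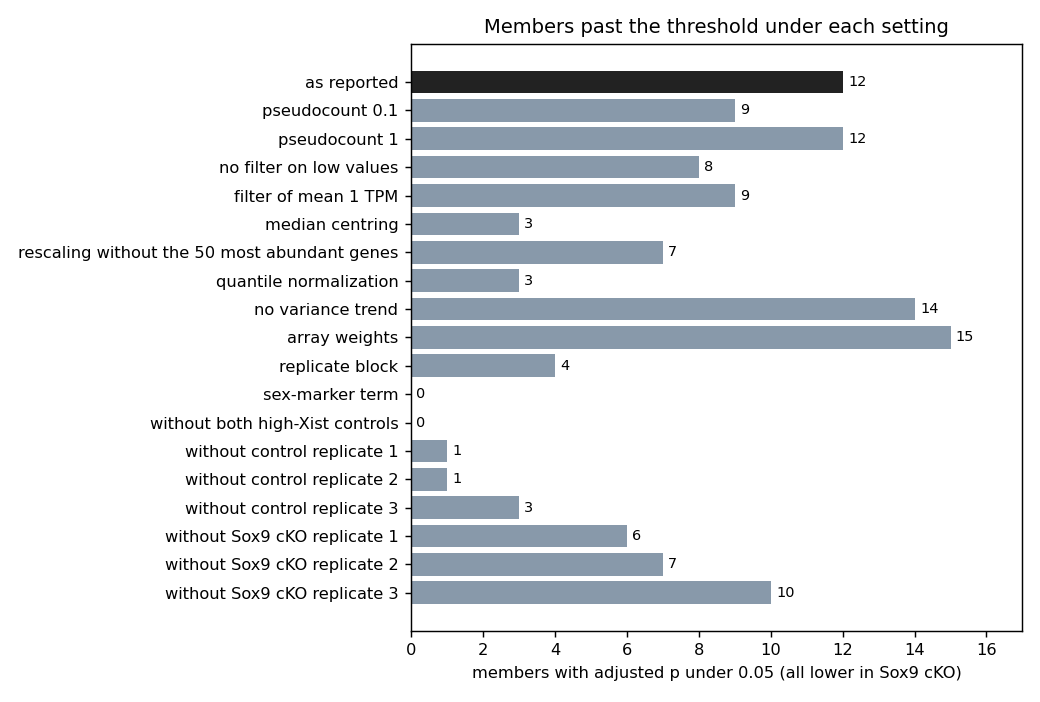
Number of members with an adjusted p under 0.05 in the fit as reported (12) and under each of 18 other settings, as bars from 0. The count is 15 with array weights, 3 after median centring or quantile normalization, 1 without control replicate 1 or 2, and 0 with the sex-marker term or without both controls with high Xist.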

How the data were processed

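Whole-liver mRNA of 3 control and 3 Sox9 cKO samples was sequenced as single-end reads of 75 nt from stranded TruSeq libraries, per the labels' protocols. Per the submitters' processing notes, reads were trimmed with Trim Galore 0.5.0 and cutadapt 1.16, aligned to mm10 with STAR 2.6.0a and quantified with RSEM 1.3.1. No annotation or strand setting is given in the sources used here. The authors deposited 1 table of TPM. Every library sums to the same total, so depth is unknown, no counting interval can be given, and a change in abundant genes shifts all others. RSEM divides reads that fit several genes. Columns were matched to samples by the library numbers in the labels.

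The 12539 genes averaging 0.5 TPM or more were transformed as log2(TPM + 0.5) and fitted with limma 3.58.1 in R 4.3.3, using group alone and a variance trend, and p-values were two-sided and adjusted over all of them. The named genes are every tested member, Sox9, the sex markers, the pathway genes past the threshold, Fn1 and Vtn. Some marker genes and some pathway genes that did not pass are named beside them. Members, classes and lists were chosen with earlier results of these data known. Lists are described by counts and medians, without a set test. Ly6g was not analysed here, and the values of 1 member are not reported here. Alternatives were pseudocounts of 0.1 and 1, other filters, median centring, quantile normalization, rescaling after removal of the 50 genes with the highest TPM, no variance trend, array weights, a replicate block, a sex-marker term, and leaving out libraries. Promoter windows came from RefSeq (GRCm38.p6, the assembly of mm10), which matched 25 of 39 members, and gene positions from GENCODE. Figures were drawn with matplotlib 3.10.9.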

Additional observations from a re-analysis of the deposited data

How the results depend on the processing

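Depth is unknown, so the precision of low members cannot be separated from counting error. The 12 members that fell had a negative difference in every alternative that could test them, and over the 26 tested integrins and laminins 463 of 464 alternative values had the sign of the reported one. The exception was Itga3, at 0.051 after quantile normalization. The groups of the 12 that fell did not overlap, so pseudocounts, filters, model terms and left-out libraries could not reverse their signs. Only median centring, quantile normalization and the rescaling could, so the shared signs say nothing about the other settings. Of the adaptor genes named beside the members, Ilk reversed to 0.16 after median centring, 0.0079 after quantile normalization and 0.12 with the sex-marker term or without both controls with high Xist, and Fermt2 (0.079) and Parva (0.038) reversed after median centring. The causes were not tested.

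In the order all tested genes, members, leukocyte integrins, epithelial and stromal integrins, and laminins, the fit as reported gave 1099, 12, 6, 2 and 2 lower genes. Median centring gave 256, 3, 1, 1 and 1, quantile normalization 215, 3, 1, 1 and 1, rescaling without the 50 most abundant genes 704, 7, 4, 1 and 2, and array weights 2312, 15, 6, 5 and 2. The sex-marker term gave 49 and then 0 for each, and leaving out both controls with high Xist gave 18 and then 0 for each, with an unadjusted p under 0.05 for 14 and 12 members by limma. Without a variance trend 4 laminins were lower. A pseudocount of 0.1, or no filter on low values, left 1 epithelial or stromal integrin. Leaving out 1 library gave 104 to 1003 genes, 1 to 10 members, 0 to 6 leukocyte integrins, 0 to 2 epithelial and stromal integrins and 1 to 2 laminins. Higher genes numbered 103 as reported, 252 with array weights, 21 with the sex-marker term, 9 without both controls with high Xist and 32 to 107 with 1 library left out. The ratio of Itgb2 to Itgb1 was computed again only with other pseudocounts and with libraries left out, and its difference kept its sign. Its groups did not overlap, so leaving out libraries could not have reversed that sign.

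With a replicate block, 563 genes, 4 members (Itga4, Itga9, Itgb2 and Lamc1), 2 leukocyte integrins, 1 epithelial or stromal integrin and 1 laminin were lower. Same-numbered libraries deviated with correlations of -0.0446, 0.00354 and -0.0269, so the numbers were not taken to pair samples. Lamc1 passed in 16 of 18 alternatives, and Itgb2 and Itga9 in 14.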
